A study of Caenorhabditis elegans with 6 samples.

Results

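The p38 mitogen-activated protein kinase (MAPK) cascade of *C. elegans* was followed from the adaptor TIR-1 to the transcription factor ATF-7 through 10 genes, *tir-1*, *nsy-1*, *sek-1*, *pmk-1*, *pmk-2*, *pmk-3*, *atf-7*, *skn-1*, *vhp-1* and *nipi-3*. They were picked by name for their place in the cascade, with earlier results of these data known. All 10 were found among the 20362 protein-coding genes counted. RNA of whole nematodes was compared between wild-type N2 (Bristol) and *grh-1* OEx, in 3 independent samples of each. *grh-1* OEx carries *grh-1*, the gene of the Grainyhead transcription factor, fused to *gfp* behind the heat-shock inducible promoter of *hsp-16.2*. It is 1 integrated line (line 1, MIR260), made by particle bombardment of nematodes lacking functional *unc-119* and then backcrossed to N2. Both groups were fed OP50 bacteria at 20 °C, were taken as adults of 48 h post-development and had no heat shock or other treatment.

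The libraries held 14409044 to 25535026 counts. Counts of *grh-1*, which include any reads of the coding sequence on the transgene, stood at 4.997, 5.63 and 6.17 CPM (counts scaled to a common library size by TMM) in the WT libraries and at 7.65, 9.69 and 6.52 CPM in those of *grh-1* OEx, each time in the order of replicates 1 to 3. The groups did not overlap, as in 3.39% of tested genes with *grh-1* OEx above WT. The log2 fold change (log2FC) was 0.51 with a standard error (SE) of 0.21 and did not pass edgeR's quasi-likelihood test (adjusted p = 0.709). *unc-119*, the gene that the bombarded nematodes lacked in functional form, had a log2FC of 1.91 (SE 0.12) and passed (edgeR adjusted p = 6.2e-05). WT replicate 3 stood apart from the other libraries on the first principal component (51.9% of the variance). The summed level of 9 sperm genes was 66.0 CPM in that library and 7.36 to 12.2 CPM in the other libraries, and the sum of 4 oocyte genes was 6369.6 CPM there against 3340.1 to 4699.9 CPM elsewhere. For intestine, hypodermis, neurons, body wall muscle, pharynx and germline all listed markers were detected too, and for each of the 8 marker lists the summed levels of WT and *grh-1* OEx overlapped. For the oocyte list this rests on WT replicate 3 alone. WT replicates 1 and 2, at 3340.1 and 3440.0 CPM, lay below all *grh-1* OEx libraries, at 3784.7 to 4699.9 CPM. In RNA of whole nematodes, fewer cells of a type and less RNA per cell cannot be told apart.

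As background, p38 signaling is a relay of kinases. In nematodes the TIR domain protein TIR-1, the orthologue of human SARM1, activates the MAPK kinase kinase NSY-1, which phosphorylates the MAPK kinase SEK-1, which in turn phosphorylates the p38 kinases. PMK-1 acts mainly in intestinal and epidermal immunity, PMK-2 works beside it in the nervous system, and PMK-3 is known from the DLK-1 pathway of axon regeneration and synapse formation. PMK-1 phosphorylates ATF-7, which turns from a repressor into an activator of immune genes, and SKN-1, the Nrf-type factor of the oxidative stress response. The phosphatase VHP-1 removes the activating phosphates from PMK-1 and from the related kinase KGB-1, and NIPI-3 is a Tribbles pseudokinase of the epidermal response to fungi. The relay itself runs on phosphorylation, which counts of RNA do not show.

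*pmk-3* (WBGene00004057), *pmk-2* (WBGene00004056) and *pmk-1* (WBGene00004055) follow each other on the plus strand of chromosome IV, at 8139219 to 8143456, 8143500 to 8148648 and 8148794 to 8151246 of WBcel235. Only 43 bases lie between *pmk-3* and *pmk-2* and 145 between *pmk-2* and *pmk-1*, and as background the 3 genes are known as 1 operon. The study's motif search, which was run only on genes it had called changed, lists 5 predicted GRH-1 sites for them. They are shown because the p38 kinases were the only step of the cascade with a gene past the test. Each is written 5′ to 3′ on its own strand, with the GGTT that all 5 share in capitals.
*pmk-1* site, chrIV:8147485-8147492, plus strand: tctGGTTt
*pmk-1* site, chrIV:8148095-8148102, minus strand: actGGTTc
*pmk-1* site, chrIV:8149614-8149621, minus strand: tctGGTTt
*pmk-2* site, chrIV:8141392-8141399, minus strand: tctGGTTt
*pmk-3* site, chrIV:8138587-8138594, minus strand: tccGGTTt

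The same 8 letters, tctGGTTt, occur at 2 sites of *pmk-1* and at the site of *pmk-2*, and these are the 3 sites that both of the study's prediction tools found. Of the 5, 4 lie inside a gene other than the one they are listed for. The first *pmk-1* site is 1309 bases upstream of the gene's start, within an intron of *pmk-2*, and the second is 699 bases upstream, within an exon of *pmk-2*. The third lies in an intron of *pmk-1* itself, 820 bases after its start. The *pmk-2* site is 2108 bases upstream of its start, in an intron of *pmk-3*, and the *pmk-3* site is 632 bases upstream, in an intron of *islo-1*. No site is listed for the other 7 genes, which says nothing about their sequence, since that search covered only genes called changed. A predicted site is a match of letters, and binding was not measured here.

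Of the cascade genes, 2 rose in *grh-1* OEx, *pmk-1* and *pmk-3*, and both encode p38 kinases. None fell. Among all 13736 genes tested, 0.146% were higher and 0.298% lower at an adjusted p under 0.05. Since the members were chosen with earlier results of these data known, and the *pmk* genes are neighbors, setting them beside these shares is only a description. At an unadjusted p under 0.05 there were 3 cascade genes higher, the 3 *pmk* genes, and 0 lower, against 2.18% of tested genes higher and 4.44% lower. With DESeq2 the count at an adjusted p under 0.05 was likewise 2 higher and 0 lower. The same 3 genes were the only members whose 3 *grh-1* OEx libraries all lay above the 3 WT libraries, as in 3.39% of tested genes. For 0 members did they all lie below, as in 6.14% of tested genes. A positive log2 fold change was found for 8 of 10 members and for 47.6% of tested genes, and the median over the members was 0.25, or 0.11 without the *pmk* genes, against −0.01 over all tested genes.

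**Figure D1:**
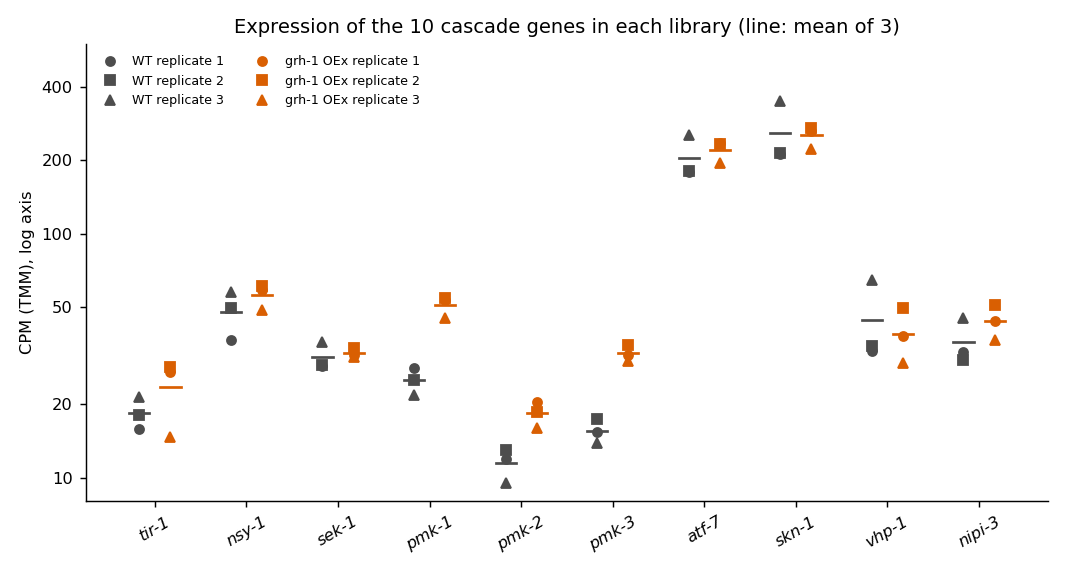
Expression of the 10 cascade genes as CPM (TMM-normalized, log axis), with 1 symbol per library, 3 WT (gray) and 3 *grh-1* OEx (orange), and a line at each group's mean. Only for *pmk-1*, *pmk-2* and *pmk-3* do the 3 orange symbols all lie above the 3 gray ones, and WT replicate 3 (gray triangle) is the lowest library for these 3 genes and the highest for *sek-1*, *atf-7*, *skn-1* and *vhp-1*.

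*pmk-3*, the first gene of the operon, was counted at 15.5, 17.4 and 13.9 CPM in WT, against 31.9, 35.1 and 30.1 CPM in *grh-1* OEx. The lowest *grh-1* OEx library was 1.73 times the highest WT library, so the groups stood clear of each other. This is a 2.08-fold change with a 95% interval of 1.68 to 2.57 (log2FC 1.05, SE 0.14), past the threshold in edgeR's test (adjusted p = 0.00918). It missed the threshold without *grh-1* OEx replicate 1 (adjusted p = 0.125) and without *grh-1* OEx replicate 2 (adjusted p = 0.101).

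*pmk-2*, the middle gene, had the lowest counts of the 3, with 11.95, 13.01 and 9.52 CPM in WT and 20.4, 18.7 and 16.1 CPM in *grh-1* OEx. The groups were separate here too, but by less, since the lowest *grh-1* OEx library was 1.23 times the highest WT library. Its log2FC was 0.68 with an SE of 0.17 (1.602-fold, 95% interval 1.23 to 2.08). With an unadjusted p = 0.00261 and an adjusted p = 0.228 in edgeR's test it did not pass, and its adjusted p ran from 0.0810 to 1.00 over all settings tried.

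*pmk-1*, the last gene, stood at 28.1, 25.2 and 21.8 CPM in WT, against 53.8, 54.5 and 45.2 CPM in *grh-1* OEx. The lowest *grh-1* OEx library was 1.61 times the highest WT library. The change was 2.05-fold with a 95% interval of 1.65 to 2.54 (log2FC 1.03, SE 0.14; edgeR adjusted p = 0.0119), close to that of *pmk-3*. It missed the threshold without WT replicate 2, *grh-1* OEx replicate 1 or *grh-1* OEx replicate 2 (adjusted p = 0.0752, 0.149 and 0.105). Without WT replicate 3, the library that stood apart, *pmk-1* and *pmk-3* had log2FC of 0.94 and 0.97 and both passed (edgeR adjusted p = 0.00454 and 0.00457).

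**Figure D2:**
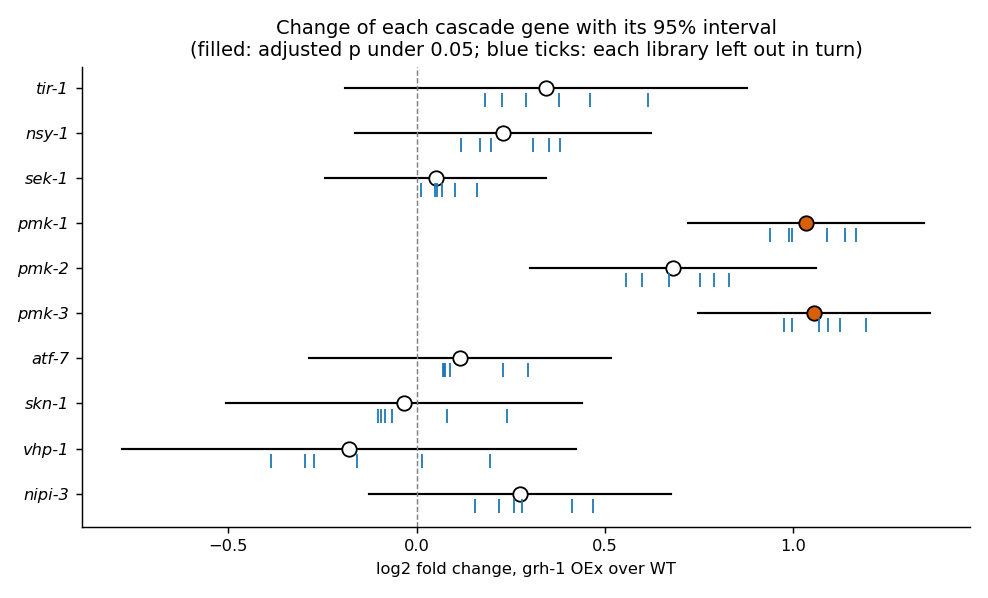
Log2 fold change of each cascade gene, *grh-1* OEx over WT, with its 95% interval from edgeR (n = 3 libraries per group); filled points passed an adjusted p of 0.05 and blue ticks give the value with each of the 6 libraries left out in turn. The intervals of the 3 *pmk* genes lie above 0, those of the other 7 genes include 0, and the ticks of *skn-1* and *vhp-1* fall on both sides of 0.

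Whether the 3 p38 genes moved by the same amount was asked with ratios of counts within each library, which depend neither on depth nor on scaling. The smallest p that the exact permutation test can give with 3 libraries against 3 is 0.1, so no ratio could reach 0.05. For *pmk-1* to *pmk-3* the difference was smaller than the spread between replicates, with ratios of 1.81, 1.45 and 1.57 in WT and 1.68, 1.55 and 1.50 in *grh-1* OEx (means 1.61 ± 0.187 and 1.58 ± 0.0952, SD, n = 3; two-sided exact p = 0.8). The ratio in *grh-1* OEx was thus 0.984 times that in WT, and the ranges overlapped.

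Relative to both of its neighbors, *pmk-2* was lower in all 3 *grh-1* OEx libraries than in the 3 of WT. Its ratio to *pmk-3* was 0.773, 0.749 and 0.684 in WT and 0.640, 0.532 and 0.534 in *grh-1* OEx, or 0.771 times the WT ratio. The ratio of *pmk-1* to *pmk-2* was 2.35, 1.94 and 2.29 in WT and 2.63, 2.92 and 2.81 in *grh-1* OEx, 1.28 times higher. Both differences gave the smallest two-sided exact p that 3 against 3 libraries allow, 0.1 (0.111 after Benjamini-Hochberg adjustment over the 10 ratios computed). Measured per kb of gene width, *pmk-2* made up 26.5, 28.5 and 25.8% of the summed level of the 3 p38 genes in WT and 23.8, 21.4 and 21.8% in *grh-1* OEx. The share of *pmk-1* was 43.5 ± 2.58% in WT and 45.9 ± 0.541% in *grh-1* OEx, and that of *pmk-3* was 29.5 ± 1.72% and 31.7 ± 1.59% (SD, n = 3 each).

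Upstream of the kinases no gene passed the test. For the adaptor gene *tir-1* (WBGene00006575, chromosome III, 3869590 to 3901466, minus strand), the counts were 15.9, 18.1 and 21.5 CPM in WT and 27.2, 28.5 and 14.6 CPM in *grh-1* OEx. The first and second *grh-1* OEx libraries were the highest of the 6 and the third was the lowest, so the groups overlapped. At 1.27-fold, with a 95% interval of 0.877 to 1.84, *tir-1* did not pass (log2FC 0.34, SE 0.24; edgeR adjusted p = 0.966). Without *grh-1* OEx replicate 3 the log2FC was 0.61, which still did not pass (edgeR unadjusted p = 0.00337, adjusted p = 0.240). The order of the 6 libraries was compared between each of the 8 marker lists and each of the 10 members. Only the pharynx and oocyte lists matched any member. The 6 libraries ranked for *tir-1* exactly as for the summed pharynx markers *myo-1*, *myo-2* and *ceh-22*, an order shared with 0.561% of tested genes. That sum was lowest in *grh-1* OEx replicate 3 at 63.5 CPM and highest in *grh-1* OEx replicate 2 at 166 CPM, and its part in the *tir-1* values was not tested.

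*nsy-1* (WBGene00003822, chromosome II, 5022764 to 5029982, plus strand), the MAPK kinase kinase gene, was counted at 36.6, 49.5 and 57.6 CPM in WT, against 59.0, 61.3 and 48.5 CPM in *grh-1* OEx. WT replicate 1 was the lowest library and the other 5 overlapped. The difference was 1.17-fold with a 95% interval of 0.893 to 1.54 (log2FC 0.23, SE 0.18; edgeR adjusted p = 1.00), and the log2FC was 0.38 without WT replicate 3 (adjusted p = 0.518).

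*sek-1* (WBGene00004758, chromosome X, 7816720 to 7820739, plus strand), which encodes the kinase that phosphorylates PMK-1, differed least between groups after *skn-1*. Its values were 28.8, 28.9 and 35.8 CPM in WT and 31.7, 34.1 and 31.1 CPM in *grh-1* OEx, and every *grh-1* OEx library lay within the WT range. The log2FC of *sek-1* was 0.05 (SE 0.13; edgeR adjusted p = 1.00) and the 95% interval of the difference ran from 0.846-fold to 1.27-fold, below the interval of *pmk-1*. Its log2FC was 0.16 without WT replicate 3 and did not pass.

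*nipi-3* (WBGene00010700, chromosome X, 15607969 to 15610631, plus strand), the Tribbles pseudokinase gene, stood at 32.7, 30.5 and 45.3 CPM in WT, against 43.7, 50.9 and 36.8 CPM in *grh-1* OEx. All *grh-1* OEx libraries were above WT replicates 1 and 2, and WT replicate 3 lay among them. The difference did not pass at 1.21-fold, with a 95% interval of 0.916 to 1.598 (log2FC 0.27, SE 0.18; edgeR adjusted p = 0.935). The log2FC was 0.47 without WT replicate 3 (unadjusted p = 0.0119, adjusted p = 0.364) and 0.41 without *grh-1* OEx replicate 3 (unadjusted p = 0.0454, adjusted p = 0.579).

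*vhp-1* (WBGene00006923, chromosome II, 5323007 to 5340818, plus strand), the phosphatase gene, had the largest SE of the 10 members. It was counted at 33.2, 34.7 and 64.5 CPM in WT, against 38.03, 49.6 and 29.4 CPM in *grh-1* OEx. WT replicate 3 was the highest library and *grh-1* OEx replicate 3 the lowest. Its log2FC was −0.18 (SE 0.27, 0.883-fold, 95% interval 0.582 to 1.34; edgeR adjusted p = 1.00), and without WT replicate 3 it turned to 0.20 (adjusted p = 0.903).

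Of the transcription factors that PMK-1 phosphorylates, *atf-7* (WBGene00000223, chromosome III, 4491627 to 4499043, minus strand) was counted at 178.6, 181 and 254 CPM in WT, against 236, 234.5 and 194 CPM in *grh-1* OEx. The *grh-1* OEx libraries all lay between WT replicate 2 and WT replicate 3. The group means differed 1.08-fold, with a 95% interval of 0.820 to 1.43 (log2FC 0.11, SE 0.18; edgeR adjusted p = 1.00). Without WT replicate 3 the log2FC of *atf-7* was 0.30 (edgeR unadjusted p = 0.0657, adjusted p = 0.616), and without *grh-1* OEx replicate 3 it was 0.23.

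*skn-1* (WBGene00004804, chromosome IV, 5651085 to 5660523, minus strand) had 213, 215 and 349 CPM in WT and 265, 271 and 223 CPM in *grh-1* OEx. Here as well all *grh-1* OEx libraries were framed by WT replicates 2 and 3. The log2FC of *skn-1* was −0.03 (SE 0.21, 0.977-fold, 95% interval 0.704 to 1.36; edgeR adjusted p = 1.00) and 0.24 without WT replicate 3 (adjusted p = 0.734). *skn-1* is on the same chromosome as the *pmk* genes. Its neighbors *csn-5* and *bec-1* had log2FC of 0.03 and 0.10, and *clec-178*, which lies within *skn-1*, had −0.37 (SE 0.30). Further out, *C39H7.4*, *C39H7.1* and *T19E7.6* had 0.02 (SE 0.15), −2.77 (SE 1.02) and −0.06 (SE 0.24). None of these genes passed edgeR's test, and for each the groups overlapped.

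Over the 7 genes outside the p38 step, log2FC ran from −0.18 to 0.34, unadjusted p-values from 0.158 to 0.877 and adjusted p-values from 0.935 to 1.00 in edgeR's test. How large a change each 95% interval still allows differs between them, from 0.846-fold to 1.27-fold for *sek-1*, the narrowest, to 0.582-fold to 1.34-fold for *vhp-1* and 0.877-fold to 1.84-fold for *tir-1*. The counts behind the 10 genes ran from 177 to 7527 reads per library. On counts simulated with the means and spread of these libraries, edgeR recovered 61 of 100 genes with a log2FC of 1 in size and 85 of 100 with one of 2. These genes were drawn from all tested genes, whatever their level. Since the kit does not mark strand, reads of exons that overlap a gene on the other strand cannot be assigned to one of them. Such overlaps are short, at most 70 bases for *sek-1*, 56 for *nsy-1* and 41 for *skn-1*, *atf-7* shares 72 bases with a gene on its own strand, and no exon of the *pmk* genes, *vhp-1* or *nipi-3* overlaps another annotated gene.

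WT replicate 3 was the highest of the 6 libraries for 4 of the 10 members, *sek-1*, *atf-7*, *skn-1* and *vhp-1*, and for 27.3% of tested genes. It was the lowest for 3 members, *pmk-1*, *pmk-2* and *pmk-3*, which are known as 1 operon, and for 20.1% of tested genes. With only 10 members these counts are not far from the shares over all tested genes and mark no trait of the cascade. *sek-1* and *skn-1* ranked the 6 libraries exactly as the summed oocyte markers did, an order found in 1.17% of tested genes. For *sek-1* this rests on a near tie of WT replicates 1 and 2, at 28.84 and 28.87 CPM. The part of oocyte or sperm RNA in these values was not tested. Without this library the calls were still *pmk-1* and *pmk-3*, and 5 members in place of 3 were higher at an unadjusted p under 0.05, *nsy-1* (edgeR unadjusted p = 0.0386) and *nipi-3* joining the *pmk* genes. Over all tested genes, too, more were higher without it, 4.76% at an unadjusted and 0.295% at an adjusted p under 0.05.

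The balance between the kinase and the rest of its cascade was then compared through the ratio of *pmk-1* counts to those of each other gene in the same library. The 7 genes outside the p38 step had log2FC from −0.18 to 0.34, so higher ratios to them largely restate the rise of *pmk-1* given above. Relative to its activating kinase gene *sek-1*, *pmk-1* went from 0.974, 0.873 and 0.609 in WT to 1.69, 1.596 and 1.45 in *grh-1* OEx, 1.96 times higher. Relative to *vhp-1*, whose product switches PMK-1 off, the ratio was 0.847, 0.726 and 0.338 in WT and 1.41, 1.10 and 1.53 in *grh-1* OEx, 2.25 times higher. Against the target *atf-7* it was 0.157, 0.139 and 0.0859 in WT and 0.228, 0.232 and 0.233 in *grh-1* OEx, 1.87 times higher. Against *skn-1* it was 0.132, 0.118 and 0.0625 in WT and 0.203, 0.201 and 0.203 in *grh-1* OEx, 2.04 times higher. The *grh-1* OEx libraries lay close together in these last ratios, while WT replicate 3 was far below the other WT libraries.

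For *tir-1*, *nsy-1* and *nipi-3* the ratio of *pmk-1* was 1.67, 1.72 and 1.68 times higher in *grh-1* OEx. The weakest separation was that from *tir-1*, with 1.77, 1.39 and 1.02 in WT against 1.98, 1.91 and 3.09 in *grh-1* OEx. Every *grh-1* OEx library was above every WT library in 8 of the 9 ratios of *pmk-1* to another member, the exception being *pmk-3*. Each of the 8 gave a two-sided exact p of 0.1, the smallest possible, and 0.111 after adjustment over 10 ratios. All of them share the *pmk-1* counts and are not independent of each other or of the change of *pmk-1* itself.

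**Figure D3:**
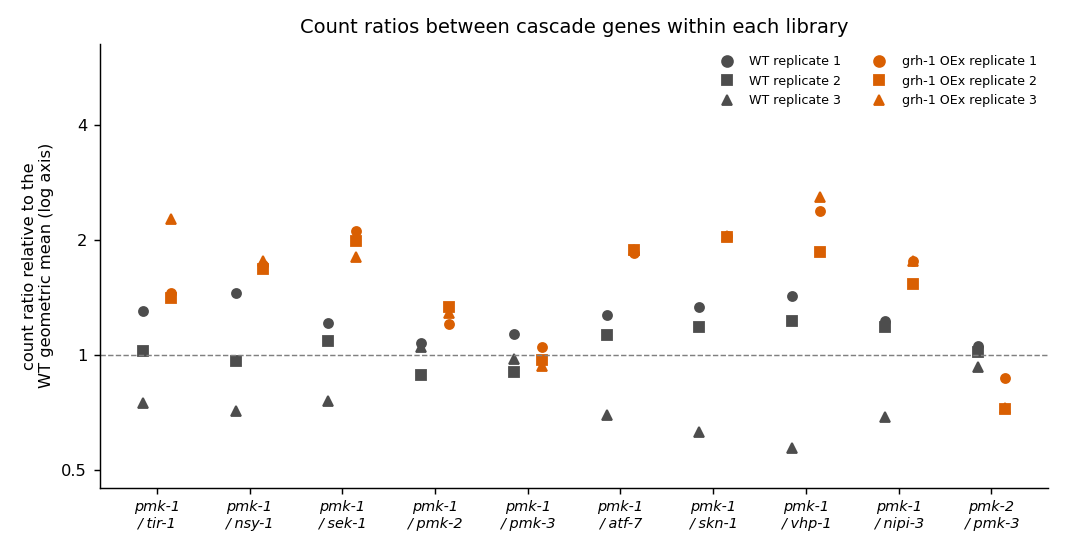
Ratio of the counts of a pair of cascade genes in each library, divided by the geometric mean of that ratio in WT (log axis), with gray symbols for 3 WT and orange for 3 *grh-1* OEx libraries. Symbols of the groups are apart for every pair but *pmk-1* to *pmk-3*, and *pmk-2* to *pmk-3* is the pair that is lower in *grh-1* OEx.

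To compare levels between genes, CPM were divided by the gene width in kb that the authors' table gives. In WT the transcription factor genes were the most abundant, *skn-1* at 113 ± 34.3 and *atf-7* at 94.4 ± 19.8 CPM per kb. They were followed by *vhp-1* at 18.9 ± 7.56, *sek-1* at 17.7 ± 2.29, *nipi-3* at 15.2 ± 3.35, *pmk-1* at 15.2 ± 1.90, *pmk-3* at 10.3 ± 1.14, *nsy-1* at 9.52 ± 2.10, *pmk-2* at 9.42 ± 1.47 and *tir-1* at 6.43 ± 0.984 CPM per kb (SD, n = 3). Neighbors in this order did not overlap between libraries at 3 places only, *atf-7* over *vhp-1* (5.0 times), *pmk-1* over *pmk-3* (1.48 times) and *pmk-2* over *tir-1* (1.47 times). In RNA of whole nematodes the genes of the targets at the end of the relay thus stood far above those of its kinases, and the adaptor gene was lowest. Such levels sum over all tissues and do not give the proportions within a cell.

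In *grh-1* OEx the p38 genes stood higher in this order, *pmk-1* from place 6 to 3 with 30.97 ± 3.14 CPM per kb and *pmk-3* from place 7 to 4 with 21.3 ± 1.66. *pmk-2* went from place 9 to 8 with 15.1 ± 1.80. *skn-1* and *atf-7* still led with 111 ± 11.5 and 102 ± 10.9 CPM per kb. Below the p38 pair stood *nipi-3* at 18.4 ± 2.96, *sek-1* at 18.3 ± 0.903 and *vhp-1* at 16.7 ± 4.33, and the last places were held by *nsy-1* at 11.2 ± 1.35 and *tir-1* at 8.15 ± 2.67 CPM per kb (SD, n = 3). Ranges of neighbors were separate between *atf-7* and *pmk-1* (3.30 times), *pmk-1* and *pmk-3* (1.45 times) and *pmk-2* and *nsy-1* (1.35 times). The order depends on the length used. With the union of all annotated exons, chosen after seeing the data, *pmk-1* went from place 5 to 3 and *pmk-3* from place 8 to 5.

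**Figure D4:**
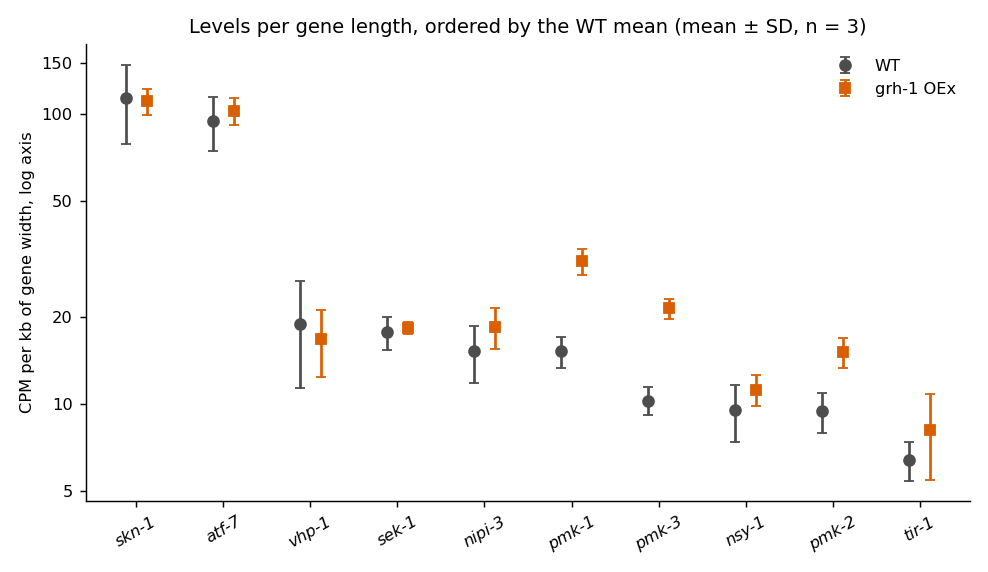
Level of each cascade gene per kb of gene width (CPM per kb, log axis) as mean and SD of 3 WT (gray) and 3 *grh-1* OEx (orange) libraries, ordered by the WT mean. *skn-1* and *atf-7* lie near 100 CPM per kb in both groups, and the *pmk* genes are those whose SD bars are apart.

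The genes whose expression across the 6 libraries was most like that of *pmk-1* were sought among all tested genes by Pearson correlation of log2 CPM. Apart from members, they were *D2096.6* (r = 0.990), *F17E9.4* (r = 0.989), *islo-1* (r = 0.988), *F01D5.3* (r = 0.984) and *C40A11.7* (r = 0.983). The first 3 start on chromosome IV at 8368344, 8348373 and 8136455, the last named being the gene just before *pmk-3*. *F01D5.3* and *C40A11.7* lie on chromosome II and were low, at 2.19 to 4.90 and 0.371 to 0.714 CPM. Neither passed edgeR's test (adjusted p = 0.266 and 0.830), and *D2096.6* did not pass either (adjusted p = 0.0712). Within the cascade, *pmk-3* (r = 0.980) and *pmk-2* (r = 0.959) were the most like *pmk-1*. *nipi-3*, *tir-1* and *nsy-1* followed at 0.490, 0.457 and 0.401, and *vhp-1* was at −0.24. These r describe 6 points that share the group difference. Of the genes next to the operon, *sph-1* (log2FC 0.80; edgeR adjusted p = 0.0404), *islo-1* (1.01, adjusted p = 0.0433) and *faah-1* (0.96, adjusted p = 0.0150) also rose, while *isp-1* (0.82), *faah-2* (0.47) and *clec-51* (0.56) did not pass. Of these neighbors, all but *faah-2* had every *grh-1* OEx library above every WT library, like the *pmk* genes and 3.39% of tested genes. How far the *pmk* values belong to this stretch of chromosome IV was not tested.

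Genes that act around the cascade were compared in 6 lists, and no gene of any list passed an adjusted p of 0.05 in edgeR's test, in either direction. With DESeq2 1 gene did, *T24B8.5*. The inputs to TIR-1 and NSY-1 (8 genes) had 4 positive genes and a median log2FC of −0.03, and none was under an unadjusted p of 0.05. The receptor gene *dcar-1* and the G protein gene *gpa-12*, which feed the epidermal response, had −0.17 (SE 0.14) and −0.20 (SE 0.20). The protein kinase C gene *tpa-1* had 0.13 (SE 0.15) and the protein kinase D gene *dkf-2* had −0.09 (SE 0.17).

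The DLK-1 to CEBP-1 branch, in which PMK-3 is the p38 kinase, had a median of 0.04 over 7 genes, 5 of them positive, and none under an unadjusted p of 0.05. *cebp-1*, the bZIP factor gene at its end, was counted at 7.36, 8.09 and 16.15 CPM in WT, against 7.03, 8.37 and 7.34 CPM in *grh-1* OEx, so that only WT replicate 3 stood out (log2FC −0.48, SE 0.29; edgeR adjusted p = 0.894). *mkk-4*, *mak-2* and *uev-3*, which act directly before or after PMK-3, had −0.14, 0.22 and 0.10 (SE 0.19, 0.16 and 0.13). The gene of the p38 kinase was past the threshold and no other gene of its branch was; whether their changes differ was not tested.

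The MLK-1 to KGB-1 branch, the second that VHP-1 restrains, had a median of 0.01 over 6 genes, with 3 positive and none under an unadjusted p of 0.05. The kinase genes *mlk-1*, *mek-1* and *kgb-1* had 0.19, −0.08 and 0.04 (SE 0.24, 0.17 and 0.13). *svh-1*, a growth factor-like ligand gene of axon regeneration, was low, with 1.08, 2.35 and 1.86 CPM in WT and 3.13, 2.91 and 2.45 CPM in *grh-1* OEx. These groups do not overlap, as in 3.39% of tested genes, but the log2FC of 0.67 (SE 0.31; edgeR adjusted p = 0.778) did not pass.

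Intestinal immune effectors that depend on PMK-1 and ATF-7 (11 genes) did not move together, with 4 positive and a median of −0.11. At an unadjusted p under 0.05, 1 was higher and 2 were lower, against 2.18% and 4.44% of all tested genes. Groups that do not overlap were found in 3.39% of tested genes with *grh-1* OEx above WT and in 6.14% with *grh-1* OEx below. *T24B8.5*, which encodes a ShK toxin domain protein and is widely used as a reporter of PMK-1 activity, had 51.5, 50.4 and 51.0 CPM in WT and 90.8, 61.3 and 79.5 CPM in *grh-1* OEx. The WT libraries were nearly equal and all *grh-1* OEx libraries lay above them, with a log2FC of 0.60 (SE 0.15; unadjusted p = 0.00315 and adjusted p = 0.259 in edgeR, adjusted p = 0.0398 in DESeq2). *K08D8.5* had 13.1, 8.91 and 17.7 CPM in WT and 8.91, 6.94 and 7.28 CPM in *grh-1* OEx (log2FC −0.78, SE 0.25; edgeR adjusted p = 0.458). *F35E12.5* had 20.9, 21.5 and 23.3 CPM in WT and 13.7, 14.2 and 19.5 CPM in *grh-1* OEx (log2FC −0.47, SE 0.16; edgeR adjusted p = 0.569). For both, the *grh-1* OEx libraries all lay below the WT libraries. For *K08D8.5* this was nearly a tie, with 8.906 CPM in *grh-1* OEx replicate 1 and 8.911 CPM in WT replicate 2. The C-type lectin gene *clec-67* had a log2FC of 0.52 (SE 0.26).

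Epidermal effectors with STA-2 (8 genes), mostly antimicrobial peptide genes of the *nlp-29* cluster, had 1 positive gene and a median log2FC of −0.25. No gene was higher and 3 were lower at an unadjusted p under 0.05, against 2.18% and 4.44% of all tested genes. *nlp-29* had 72.4, 61.7 and 52.7 CPM in WT and 29.2, 44.1 and 47.9 CPM in *grh-1* OEx (log2FC −0.63, SE 0.20; edgeR unadjusted p = 0.00981, adjusted p = 0.440). *nlp-28* had 39.3, 38.8 and 35.8 CPM in WT and 21.9, 27.2 and 30.6 CPM in *grh-1* OEx (log2FC −0.52, SE 0.14; edgeR unadjusted p = 0.00514, adjusted p = 0.330). Both had all *grh-1* OEx libraries below all WT libraries, as had 6.14% of tested genes, and neither passed. *nlp-34* and *nlp-31* had −0.60 and −0.29 (SE 0.26 and 0.18). Genes of this cluster resemble each other in sequence, so that their reads may be split between them.

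Downstream of SKN-1, its negative regulator *wdr-23* and phase II detoxification genes (9 genes in all) had a median of −0.10 with 3 positive, and none was under an unadjusted p of 0.05. *wdr-23* had −0.13 (SE 0.15) and *gst-10* 0.25 (SE 0.17). The groups did not overlap for *ugt-11* (0.44, SE 0.20; edgeR adjusted p = 0.759), higher in *grh-1* OEx, and for *gst-30* (−0.40, SE 0.30; edgeR adjusted p = 1.00), which was lower, against 3.39% and 6.14% of all tested genes in these directions.

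**Figure D5:**
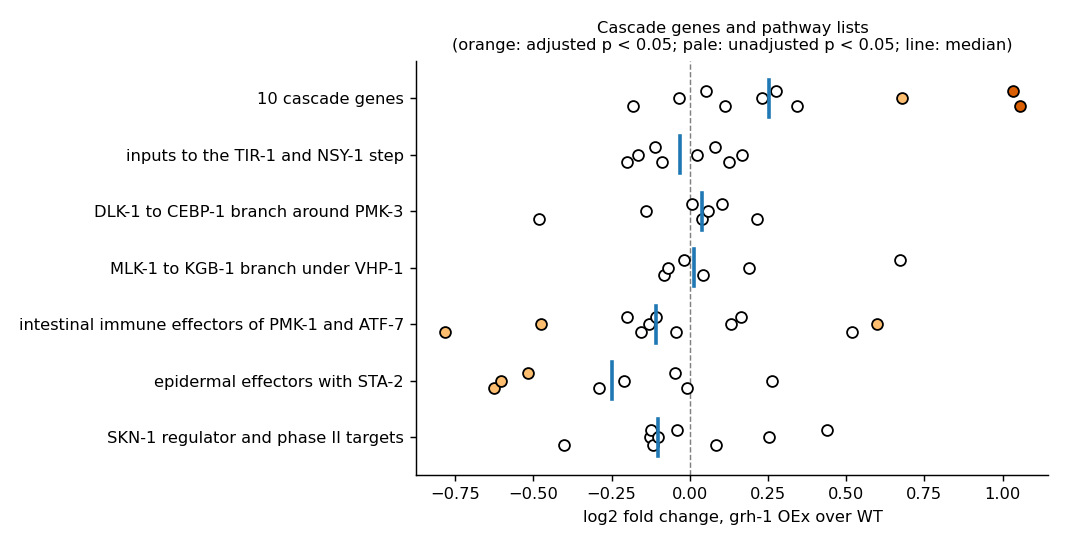
Log2 fold change, *grh-1* OEx over WT, of the 10 cascade genes and of every tested gene in 6 lists around the cascade, with a blue line at each median. Among the points only *pmk-1* and *pmk-3* passed an adjusted p of 0.05 (dark orange); pale orange marks an unadjusted p under 0.05, which holds for *pmk-2* among the cascade genes, for 1 higher and 2 lower among the intestinal effectors and 3 lower among the epidermal ones.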

How the data were processed

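Poly(A) RNA of 3 WT and 3 *grh-1* OEx samples was made into unstranded libraries (TruSeq RNA Sample Prep Kit v2). After trimming, the authors mapped reads to WBcel235 (Ensembl) using STAR and deposited raw whole-number counts per gene, made with featureCounts of Subread (versions not given in the sources used here). The authors' methods name DESeq2, and for the same step quantile normalization with quasi-likelihood F-tests. The deposited normalized counts, a signal per gene, served only to check the columns, the 6 deposited FPKM columns were not used, and the columns of the authors' own comparison (log2 ratios and p-values) were not used either. Gene names, positions and widths came from the deposited annotation, and exon overlaps from Ensembl release 115 of the same build.

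The raw counts were tested with edgeR 4.0.16 in R 4.3.3 (glmQLFit, glmQLFTest, TMM, filterByExpr with a minimum count of 10 and total of 15), with Benjamini-Hochberg adjustment over 13736 genes and a threshold of 0.05. All 10 members passed the filter. Standard errors were taken from the F statistic. The biological coefficient of variation was 0.210, and no library was a copy of another of its group (chi-square per degree of freedom 16.4 or more). On simulated counts of 13576 tested genes with 200 changed, 11 calls were false. Ratios between genes used counts plus 0.5 and two-sided exact permutation tests over libraries. Correlations with *pmk-1* used log2(CPM + 0.1). Alternatives were DESeq2 1.42.0, limma-voom (limma 3.58.1), factors by upper quartile or RLE, omitting the filter, requiring 10 counts in all libraries, a block for the replicate number, and leaving out 1 library at a time.

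The members and lists were chosen with earlier results of these data known. All members were named, with up to 4 genes of each list with the smallest unadjusted p, the 5 genes most like *pmk-1*, *grh-1* and *unc-119*. The genes beside the operon and beside *skn-1* were named for their position, and *svh-1*, *ugt-11* and *gst-30* also stand out by groups that do not overlap.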

Additional observations from a re-analysis of the deposited data

How the results depend on the processing

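Of the 10 cascade genes, 2 were called in edgeR's test and under 10 of 13 alternatives, *pmk-1* and *pmk-3* each time. With each library left out in turn the count ran from 0 to 2, being 1 (*pmk-3*) when WT replicate 2 and 0 when the first or second *grh-1* OEx replicate was left out, and the log2 fold changes of *pmk-1* and *pmk-3* then ran from 0.94 to 1.17 and from 0.97 to 1.19. *pmk-2* was positive and not called in any setting. Those of *tir-1*, *nsy-1*, *sek-1*, *atf-7* and *nipi-3* stayed positive in every setting run and passed in none. Same-numbered libraries of the 2 groups did not stand out as alike. Correlations of their deviations from the group mean were 0.23, −0.01 and −0.12, against −0.37 to 0.33 for differently numbered ones. With 3 libraries per group this cannot show whether same-numbered samples were prepared together. With the number as a replicate block 2 members were called.

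The sign of *skn-1* turned with limma-voom (0.0081), without a filter (0.020), with the replicate block (0.0043) and when libraries were left out (−0.10 to 0.24). That of *vhp-1* ran from −0.39 to 0.20 with libraries left out, and that of the log2 difference in the *pmk-1* to *pmk-3* ratio from −0.10 to 0.066. The other 9 ratio differences kept their sign throughout. List medians with a library left out ran from −0.13 to 0.15 for the inputs, −0.05 to 0.12 for the DLK-1 branch, −0.10 to 0.18 for the MLK-1 branch, −0.12 to 0.17 for intestinal effectors, −0.35 to −0.093 for epidermal effectors and −0.13 to 0.10 for SKN-1 targets. With DESeq2 1 intestinal effector passed, *T24B8.5*. The causes were not tested.

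Per kb of the exon union, which is longer for most genes, levels in WT and *grh-1* OEx were 3.05 and 3.87 CPM per kb for *tir-1*, 15.2 and 15.7 for *sek-1*, 7.48 and 11.96 for *pmk-2*, and 8.35 and 17.3 for *pmk-3*. In *grh-1* OEx, *atf-7* and *skn-1* stood at 81.6 and 85.5 CPM per kb. With 3 libraries per group a change near 1 on the log2 scale is often missed, so that a gene not called may have changed.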
